A study of Mus musculus with 18 samples.

Results

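Fatty acid oxidation genes and targets of the nuclear receptor PPAR alpha were examined as a set of 40 genes, out of 23474 genes in the deposited expression table. The 40 were taken by symbol: the receptor gene Ppara, 5 genes of fatty acid activation and the carnitine shuttle, 10 of mitochondrial beta-oxidation, 3 of electron transfer, 8 peroxisomal genes, 5 acyl-CoA thioesterase genes, 5 genes of microsomal omega-oxidation, the ketone body gene Bdh1, and the further targets Vnn1 and Pdk4. All 40 symbols matched exactly 1 row of the table. Messenger RNA had been sequenced from liver and from epididymal white adipose tissue (eWAT, the fat pad beside the epididymis) of male C57BL/6J mice (written C56BL/6J in the strain tag), 17 weeks old. The mice had spent 12 weeks, from 5 weeks of age, as high-fat diet-prone animals (HP), as high-fat diet-resistant animals (HR) or on a normal diet (ND). Each tissue had 3 libraries of each group, 18 in all. Random division into the groups is stated, but not how prone and resistant mice were told apart, nor whether a number marks the same mouse in both tissues. The study asked how expression tied to lipid and glucose metabolism differs between mice prone and resistant to such a diet. Values are FPKM (fragments scaled by transcript length and by the mapped fragments of a library), so genes can be compared per length but the number of reads behind a value is unknown.

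Fatty acids enter oxidation as acyl-CoA esters. Mitochondria take long chains in through carnitine esters and shorten them by repeated dehydrogenation, hydration, dehydrogenation and thiolysis, peroxisomes shorten very long chains with their own enzymes, and microsomal cytochromes P450 of the Cyp4a family hydroxylate the far (omega) end of the chain. In liver, PPAR alpha binds fatty acids, pairs with the retinoid X receptor and switches on genes of all these routes as well as ketone body synthesis, most strongly in fasting; white fat mainly stores fatty acids and makes little PPAR alpha.

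Liver libraries were alike, with median correlations across genes of 0.9814 to 0.9911 with the other liver libraries, and the 7 hepatocyte markers summed to 50634 to 96598 FPKM in them against 1.163 to 10.93 FPKM in eWAT. The albumin gene Alb, 1 of the 7, is listed at 0 in liver HP 3 against 21466 to 28319 FPKM in the other liver libraries; a listed 0 can be a failed estimate. Among eWAT libraries ND 1 and HR 2 stood apart (median correlations 0.6068 and 0.713). The 4 spermatid markers, from testis, summed to 92413 FPKM in ND 1 and 11231 FPKM in HR 2, while the 4 adipocyte markers summed to 3533 and 4760 FPKM there against 14984 to 29573 FPKM in the other 7. The 40 genes summed to 1217 FPKM in ND 1 and 1630 FPKM in HR 2 against 2547 to 3348 FPKM in the others. ND 1 nevertheless had the highest level of the 9 for Cpt2, Etfb and Acot8, and HR 2 for Acsl1, Cpt1b and Bdh1. Counts of calls in eWAT are therefore given over 9 libraries and over the 7 without ND 1 and HR 2, and levels and differences of single genes over the 7. The 7 are not free of such RNA: the spermatid markers summed to 1738 FPKM in HP 1 and 2282 FPKM in ND 3, against at most 127.7 FPKM in the other 5. The 7 markers of epididymal epithelium summed to 1279 FPKM in HP 2, against at most 12.76 FPKM in the other 6 (18917 FPKM in ND 1). Their part in the eWAT results was not tested. A fit without ND 1, ND 3, HP 1 and HR 2 keeps ND 2 as the only ND library and cannot decide it. Skeletal muscle markers (5 genes) summed to 98.93 FPKM in liver HP 2 and 19.91 FPKM in liver HP 3, against at most 0.955 FPKM in the other liver libraries. Separate animals per library are not stated, and the p-values below therefore speak only to how far these libraries scatter, which may be technical. In whole tissue, fewer cells of a type and less RNA per cell cannot be told apart.

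Promoter windows are shown for 4 genes on which the liver results below turn: Ehhadh and Cyp4a32, lower in HP than in ND by large folds, Cpt1a, whose diet difference ran in opposite directions in the tissues, and Hadhb, which shares its start region with Hadha. They are RefSeq sequences of GRCm38.p6, from 250 bases before to 50 bases after the annotated start, and capitals mark AGGNCA, the repeat unit of PPAR response elements, on either strand. Ehhadh lies at chr16:21787785-21788084 on the minus strand, Cpt1a at chr19:3323051-3323350 on the plus strand, Cyp4a32 at chr4:115600688-115600987 on the plus strand, and Hadhb at chr5:30155003-30155302 on the plus strand.
Ehhadh: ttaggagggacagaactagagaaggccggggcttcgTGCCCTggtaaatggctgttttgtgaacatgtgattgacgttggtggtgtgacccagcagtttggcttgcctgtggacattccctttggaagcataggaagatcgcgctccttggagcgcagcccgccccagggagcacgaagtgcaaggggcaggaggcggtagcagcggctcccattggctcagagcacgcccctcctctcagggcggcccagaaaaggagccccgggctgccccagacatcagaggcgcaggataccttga
Cpt1a: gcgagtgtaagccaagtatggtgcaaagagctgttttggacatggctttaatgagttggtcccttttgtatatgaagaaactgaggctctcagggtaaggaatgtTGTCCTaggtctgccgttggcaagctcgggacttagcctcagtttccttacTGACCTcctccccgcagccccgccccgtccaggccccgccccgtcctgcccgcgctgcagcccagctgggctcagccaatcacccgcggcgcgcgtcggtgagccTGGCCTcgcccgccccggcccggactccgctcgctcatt
Cyp4a32: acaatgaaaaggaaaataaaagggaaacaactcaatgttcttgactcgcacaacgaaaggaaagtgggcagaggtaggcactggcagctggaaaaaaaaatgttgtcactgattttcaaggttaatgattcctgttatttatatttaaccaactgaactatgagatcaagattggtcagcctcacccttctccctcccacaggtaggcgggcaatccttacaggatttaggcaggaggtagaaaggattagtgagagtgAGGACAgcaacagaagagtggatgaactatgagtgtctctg
Hadhb: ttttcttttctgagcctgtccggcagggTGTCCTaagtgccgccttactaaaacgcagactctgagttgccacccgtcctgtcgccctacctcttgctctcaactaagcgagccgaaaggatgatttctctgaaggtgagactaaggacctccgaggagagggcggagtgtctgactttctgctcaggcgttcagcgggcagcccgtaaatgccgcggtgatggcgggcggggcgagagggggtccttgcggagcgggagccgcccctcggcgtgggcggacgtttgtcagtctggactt
AGGNCA occurred 3 times in the Cpt1a window and 1 time in each of the other windows shown. Windows were at hand for 32 of the 40 genes (35 windows, as some genes have several starts); those of Acaa2, Cpt1b, Cyp4a10, Cyp4a14, Cyp4a31, Decr1, Hsd17b4 and Vnn1 were not used here. AGGNCA on either strand was in 26 of the 35 windows and in 57.2% of all 32851 windows of the same length. The full direct repeat with 1 base between the units, AGGNCANAGGNCA on either strand, was in 0 of the 35 windows and in 0.381% of all windows. A match is a run of letters and does not show binding. Hadha, on the opposite strand from Hadhb, has its window at chr5:30154931-30155230, which shares 228 bases with the Hadhb window; the annotated starts lie 273 bases apart.

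In liver on the normal diet the omega-hydroxylase Cyp4a14 had the highest level of the 40 genes, with a mean of 3529 FPKM (n = 3), followed by its relative Cyp4a10 with 2054 FPKM, the peroxisomal thiolase Acaa1b with 1919 FPKM, the peroxisomal bifunctional enzyme Ehhadh with 1140 FPKM and the long-chain acyl-CoA synthetase Acsl1 with 834.7 FPKM. The order differed on high-fat diet. In HP livers Acaa1b led with 1944 FPKM, then Cyp4a14 with 900.5 FPKM, Cyp4a10 with 724.3 FPKM and the mitochondrial thiolase Acaa2 with 682.3 FPKM; the 3 libraries of Cyp4a14 and Cyp4a10 overlapped in HP, as did those of Cyp4a10 and Acaa2. In HR livers Cyp4a14 (1459 FPKM) and Acaa1b (1420 FPKM) overlapped at the top. In eWAT the leading gene was Acsl1 in every group, at 335.4 FPKM in HP, 386.3 FPKM in HR and 468.7 FPKM in ND (HR and ND over 2 libraries each), followed by the electron transfer flavoprotein subunit Etfa at 211.2, 255.1 and 329.1 FPKM.

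The tissues were first compared on the normal diet. Over the 16 libraries without eWAT ND 1 and HR 2, 33 of the 40 genes passed the filter on low values in both tissues; 29 of them were higher in liver than in eWAT and 1 lower (limma, Benjamini-Hochberg adjusted p under 0.05), when 13.2% of the 9997 genes past the filter in both tissues were higher and 61.5% lower. The log2 difference of liver over eWAT, on the log2(FPKM + 1) scale used throughout, was 5.57 for Ehhadh, 5.51 for Acaa1b, 4.87 for the peroxisomal carnitine octanoyltransferase Crot and 3.97 for Ppara. The other 7 genes (Acot3, Acot4, the 4 Cyp4a genes and Bdh1) passed the filter through liver alone, so their difference is no test and is given as levels. Bdh1, which interconverts the ketone bodies acetoacetate and beta-hydroxybutyrate, had 230.1, 176 and 249 FPKM in liver ND against 0.186 and 1.52 FPKM in eWAT ND 2 and ND 3. Summed over 4 genes, Cyp4a levels in eWAT lay between 0.0987 and 1.867 FPKM. The 1 gene lower in liver was Pdk4, the kinase that switches off pyruvate dehydrogenase. It had 11.3, 4.47 and 3.38 FPKM in liver ND against 138 and 131 FPKM in eWAT ND 2 and ND 3 (5.39 FPKM in ND 1), a log2 difference of -4.35 (adjusted p = 9.31e-08). The muscle-type carnitine palmitoyltransferase Cpt1b, Etfa and the short-chain hydroxyacyl-CoA dehydrogenase Hadh did not pass. For Hadh the means nearly coincided (limma adjusted p = 0.997). All genes summed to 703182 to 930139 FPKM in liver libraries and 517361 to 608819 FPKM in the 7 eWAT libraries. Tissue differences rest on the values as deposited, and how far those of single genes depend on this scale is not given. Over all 18 libraries 25 of 34 genes past the filter in both tissues were higher and 1 lower, against 10.3% and 33.8% of 10100 genes; Pdk4 was again the lower one (log2 difference -2.88, adjusted p = 0.0258).

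**Figure D1:**
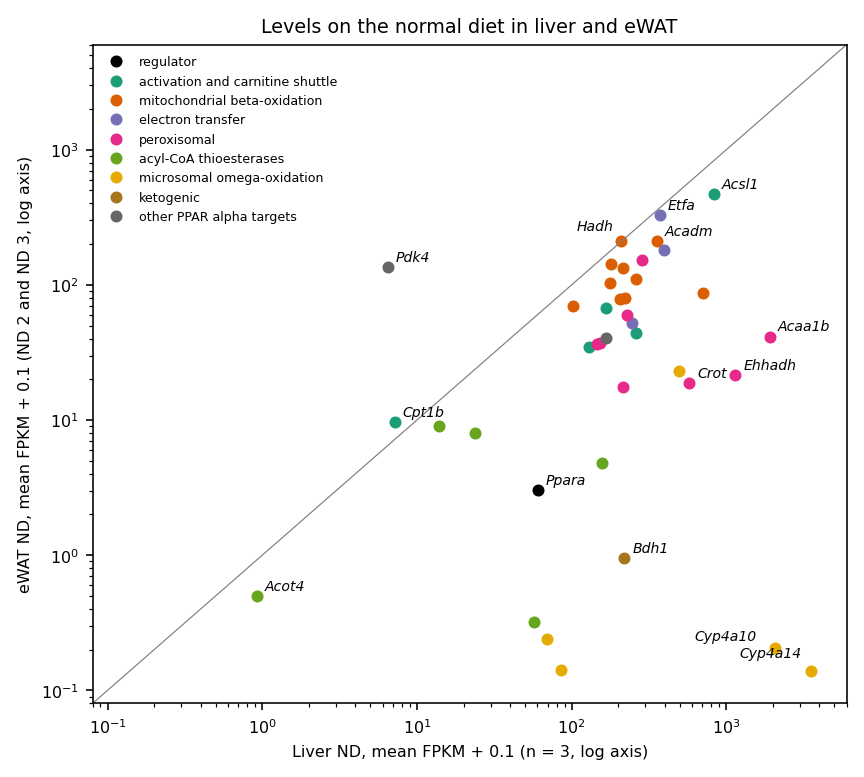
Mean level on the normal diet in liver (horizontal, 3 libraries) against eWAT (vertical, ND 2 and ND 3) for the 40 genes, as FPKM + 0.1 on log axes, coloured by step; the line marks equal levels. Pdk4 lies far above the line, mitochondrial genes lie near and below it, and the Cyp4a genes sit at the bottom right with less than 1 FPKM in eWAT.

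The main comparison in liver set HP against ND. Of the 40 genes 3 were higher and 16 lower in HP (limma, adjusted p under 0.05), when 17.6% of the 10633 genes tested were higher and 14.1% lower. The median log2 difference was -0.20 for the 40 genes and -0.02 for all genes tested, and 20 of the 40 had an unadjusted p under 0.05. The lower genes came from each step that has more than 1 gene, and most densely from microsomal omega-oxidation, where 4 of 5 fell. The higher ones were the isomerase Eci1, Hadh and Acot4. Acot4 passed the filter on low values only through the HP libraries, so its call is no test, though it is counted here. Scaling moved the balance over all genes: with every library rescaled to the same sum, the median of all genes was -0.20 and 1109 genes were higher and 2439 lower, against 1870 and 1502 in the values as deposited, while the 40 genes gave 2 higher and 17 lower. Leaving out any 1 of the 9 libraries gave 16 to 20 calls among the 40 against 19 with all, and 3 higher and 13 lower without HP 2, the library with the most skeletal muscle RNA.

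**Figure D2:**
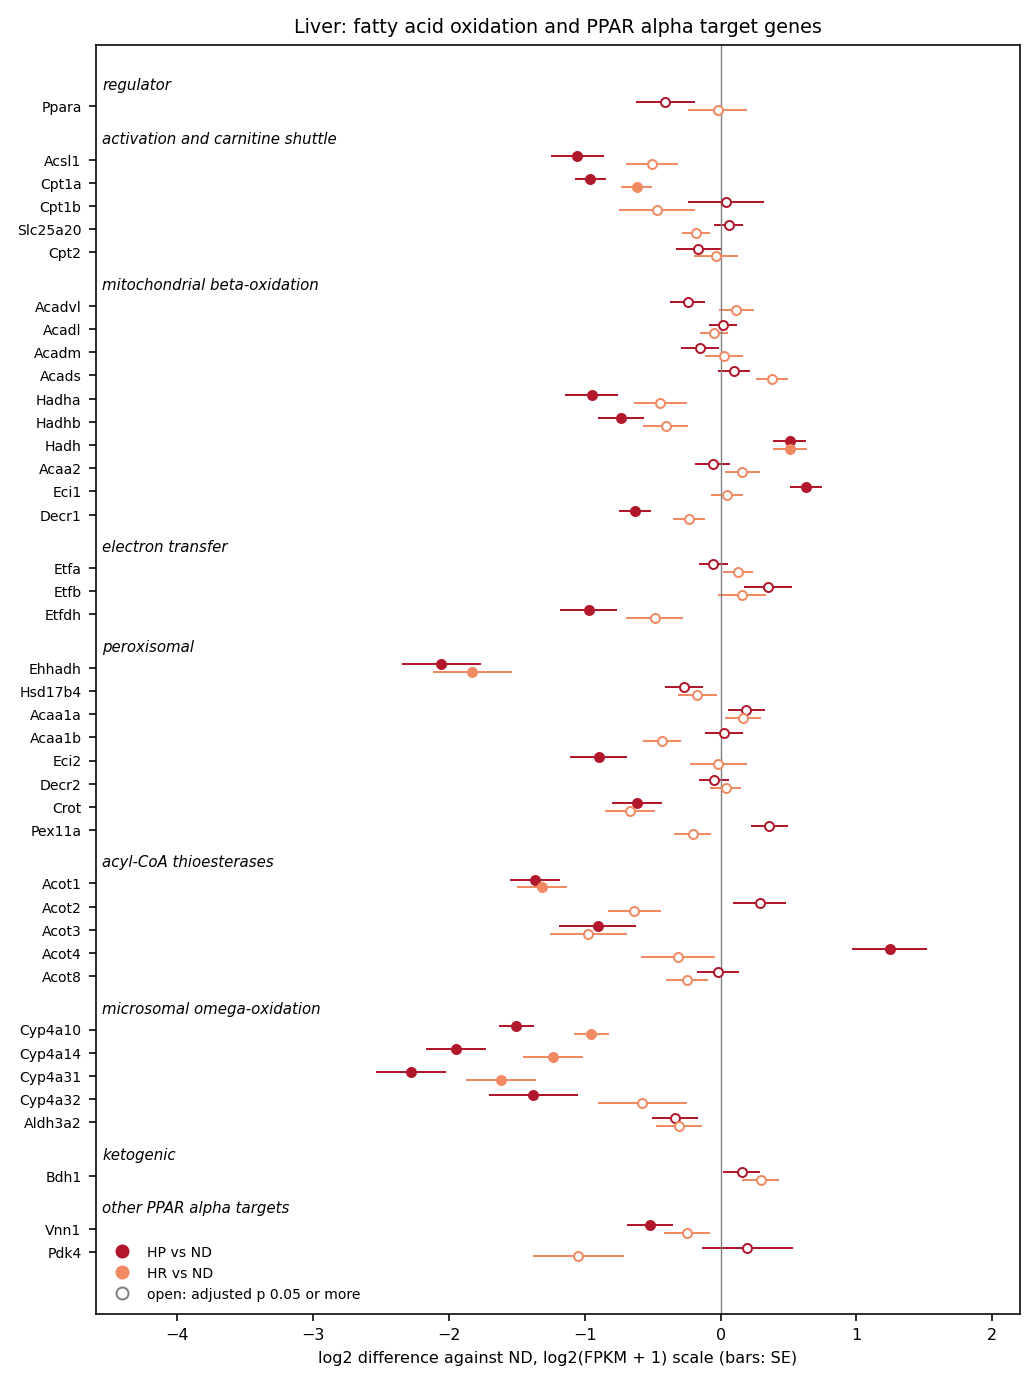
Log2 difference on the log2(FPKM + 1) scale in liver for the 40 genes by step, for each high-fat group against ND; bars are standard errors and open symbols have an adjusted p of at least 0.05. The 4 Cyp4a genes and Ehhadh lie far below 0 in HP, while the mitochondrial genes stay within 1 log2 unit of 0.

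Microsomal omega-oxidation showed the lowest median, -1.5 over its 5 genes. Cyp4a14 (ENSMUSG00000028715) had 1097, 730.2 and 874 FPKM in HP livers, against 4395, 2425 and 3767 FPKM in ND livers (log2 difference -1.95, SE 0.22, adjusted p = 0.000359). Every HP library was below every ND library. Cyp4a10 (ENSMUSG00000066072) had 770.4, 740.1 and 662 FPKM in HP against 2034, 1904 and 2224 FPKM in ND (-1.5, SE 0.13, adjusted p = 7.59e-05). Cyp4a31 had 12.8, 12.3 and 13.2 FPKM in HP against 77.4, 41.0 and 89.1 FPKM in ND (-2.28, SE 0.26, adjusted p = 0.000348). Cyp4a32 had 34.7, 26.3 and 31.9 FPKM in HP against 74.4, 120.0 and 60.5 FPKM in ND (-1.38, SE 0.33, adjusted p = 0.0105). None of these groups overlapped. Reads can be split between the copies: 46.8% of the 50-base words of Cyp4a32 transcripts, 30.5% of those of Cyp4a10 and 21.7% of those of Cyp4a31 occurred in another gene, against 0.245% for Cyp4a14, so single values of the first 3 are uncertain. Together the 4 Cyp4a genes made up 17.1, 14.9 and 15.9% of the summed FPKM of the 40 genes in HP livers, 22.1, 23 and 23.2% in HR livers and 35.1, 32.3 and 35.5% in ND livers. The fifth gene of the step, the fatty aldehyde dehydrogenase Aldh3a2, differed by -0.34 (SE 0.15) and did not pass.

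Among the 8 peroxisomal genes 3 fell and 0 rose. Ehhadh (ENSMUSG00000022853) had 282, 219.6 and 263 FPKM in HP livers, against 1612, 612 and 1197 FPKM in ND livers (log2 difference -2.06, SE 0.29, adjusted p = 0.00107). The lowest ND library was more than 2-fold above the highest HP library. The isomerase Eci2 had 102, 54.6 and 83.3 FPKM in HP against 155, 116 and 169 FPKM in ND (-0.90, SE 0.21, adjusted p = 0.00997), and Crot, which makes carnitine esters of medium chains, had 433, 307 and 385 FPKM against 661, 474 and 585 FPKM (-0.61, SE 0.18, adjusted p = 0.0273). For neither did HP and ND overlap. The paired thiolases, which share reads (35.5% of the words of Acaa1b and 16.2% of those of Acaa1a), did not pass: Acaa1b had 1917, 2085 and 1829 FPKM in HP and 2176, 1861 and 1721 FPKM in ND. Acaa1a had 266, 295 and 224 FPKM in HP and 222, 239.8 and 223 FPKM in ND. The D-bifunctional protein gene Hsd17b4, the dienoyl-CoA reductase Decr2 and Pex11a, a factor of peroxisome division, did not pass either; Pex11a had 202, 168 and 214 FPKM in HP against 173, 128 and 154 FPKM in ND (0.36, adjusted p = 0.0695).

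Of the 5 genes of activation and the carnitine shuttle 2 fell. Cpt1a (ENSMUSG00000024900), the liver-type carnitine palmitoyltransferase and gate of mitochondrial entry, had 134, 121 and 148 FPKM in HP livers, against 262, 254 and 265 FPKM in ND livers (log2 difference -0.96, SE 0.11, adjusted p = 0.000454). Acsl1 had 462, 336 and 393 FPKM in HP against 979, 617 and 908 FPKM in ND (-1.05, SE 0.19, adjusted p = 0.00343). In both genes all HP libraries were below all ND libraries. The later shuttle steps did not pass: the translocase Slc25a20 had 146, 133 and 129 FPKM in HP and 134, 124 and 133 FPKM in ND, and the inner-membrane transferase Cpt2 had 139.7, 179 and 131 FPKM in HP and 184, 136 and 184 FPKM in ND. Cpt1b had 6.07 to 8.0 FPKM in HP and 4.69 to 9.85 FPKM in ND; 93% of its words occur in another annotated gene, Gm44502. The receptor gene Ppara (ENSMUSG00000022383) had 40.8, 39.1 and 53.6 FPKM in HP, against 66.7, 41.0 and 73.9 FPKM in ND (-0.41, SE 0.22, adjusted p = 0.168). ND 2 lay inside the HP range, and without it the difference was -0.66 (adjusted p = 0.0173).

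Within mitochondrial beta-oxidation 2 of 10 genes rose and 3 fell. The alpha subunit of the trifunctional protein, Hadha, had 128, 90.6 and 118 FPKM in HP livers, against 246, 157 and 259 FPKM in ND livers (log2 difference -0.95, SE 0.20, adjusted p = 0.00576). Its partner subunit Hadhb, whose window is printed above, had 154, 116 and 116 FPKM in HP against 229.7, 167 and 251 FPKM in ND (-0.74, SE 0.17, adjusted p = 0.00921). Both subunits were below ND in every HP library. Decr1, the mitochondrial dienoyl-CoA reductase for unsaturated chains, had 123, 111 and 105 FPKM in HP against 179, 155 and 193 FPKM in ND (-0.63, SE 0.12, adjusted p = 0.00369). Hadh had 317, 278 and 294 FPKM in HP against 192, 206 and 227 FPKM in ND (0.51, SE 0.12, adjusted p = 0.0116), and Eci1, which moves double bonds into position, had 318, 338 and 294 FPKM against 205, 209 and 200.1 FPKM (0.63, SE 0.12, adjusted p = 0.00368). HP and ND did not overlap for either gene. The call of Hadh was lost without ND 1 (adjusted p = 0.0549), with quantile normalization (0.28, adjusted p = 0.146) and after rescaling to the same sum (0.29, adjusted p = 0.145). That of Eci1 was lost after correction for transcript length and GC content (0.14, adjusted p = 0.351). The 4 acyl-CoA dehydrogenases (Acadvl, Acadl, Acadm and Acads) and the thiolase Acaa2 did not pass, with HP levels of 198 to 233, 178 to 184, 281 to 362, 99.3 to 121 and 605 to 773 FPKM and ND levels of 232 to 286, 175 to 186, 305 to 385, 92.1 to 107 and 687 to 739.6 FPKM.

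Ratios between members of the step, taken within each library, followed. The ratio of Hadh to Hadha was 2.67 ± 0.344 in HP livers, 1.87 ± 0.115 in HR livers and 0.989 ± 0.282 in ND livers (SD, n = 3 each). Eci1 over its peroxisomal counterpart Eci2 was 3.13, 6.2 and 3.53 in HP livers, and averaged 1.48 ± 0.165 in HR and 1.43 ± 0.325 in ND (SD, n = 3 each). The summed level of the 10 mitochondrial genes lay between 2330 and 2833 FPKM in all 9 liver libraries. The 4 Cyp4a genes summed to 1915, 1509 and 1582 FPKM in HP, 2509, 2683 and 2611 FPKM in HR and 6581, 4490 and 6140 FPKM in ND.

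In electron transfer, Etfdh, which passes electrons of the acyl-CoA dehydrogenases to ubiquinone, had 145, 95.5 and 129 FPKM in HP livers, against 274, 175 and 283 FPKM in ND livers (log2 difference -0.97, SE 0.21, adjusted p = 0.0071). Its groups did not overlap. The flavoprotein subunits that feed it did not pass: Etfa had 340.5 to 383 FPKM in HP and 355 to 387 FPKM in ND, and Etfb 432 to 628 FPKM in HP and 348 to 449 FPKM in ND (67.3% of Etfb words occur in another annotated gene, Gm45233).

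The thioesterases, which release free fatty acids from acyl-CoA, went in different directions. Acot1, the cytosolic form, had 83.8, 51.8 and 51.1 FPKM in HP livers, against 173, 149 and 151 FPKM in ND livers (log2 difference -1.36, SE 0.18, adjusted p = 0.000767). Acot3, a peroxisomal form, had 27.8, 32.3 and 23.6 FPKM in HP against 38.2, 89.8 and 42.5 FPKM in ND (-0.90, SE 0.28, adjusted p = 0.0337). Both were lower in each HP library than in any ND library. Acot4, another peroxisomal form, had 3.26, 2.49 and 3.67 FPKM in HP against 1.61, 0.592 and 0.251 FPKM in ND (1.25, SE 0.27). Outside HP it reached 1 FPKM in ND 1 alone and passed the filter only through HP, so its difference is no test. The mitochondrial form Acot2 had 13.0, 19.5 and 18.8 FPKM in HP and 16, 14.4 and 11.0 FPKM in ND, and Acot8 18.3 to 26.1 FPKM in HP and 21.0 to 27.0 FPKM in ND, and neither passed. Acot1 to Acot4 share 18.7, 27.7, 19.5 and 4.87% of their words with other genes, so their single values are uncertain; the 4 summed to 110.4 ± 15.9 FPKM in HP, 98.9 ± 8.56 FPKM in HR and 229.3 ± 24.4 FPKM in ND (SD, n = 3 each).

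Bdh1 had 246, 233 and 243 FPKM in HP livers and 230.1, 176 and 249 FPKM in ND livers (log2 difference 0.15, adjusted p = 0.409), so its groups overlapped. Vnn1, a pantetheinase, had 130.0, 109.6 and 104 FPKM in HP against 189.6, 130.2 and 178 FPKM in ND (-0.52, SE 0.17, limma adjusted p = 0.0405). HP 1 and ND 2 were nearly equal. How this call and those of Acot3 and Crot fared in the alternatives is not given. Pdk4 had 6.28, 5.26 and 8.77 FPKM in HP and 11.3, 4.47 and 3.38 FPKM in ND (0.20, adjusted p = 0.677).

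**Figure D3:**
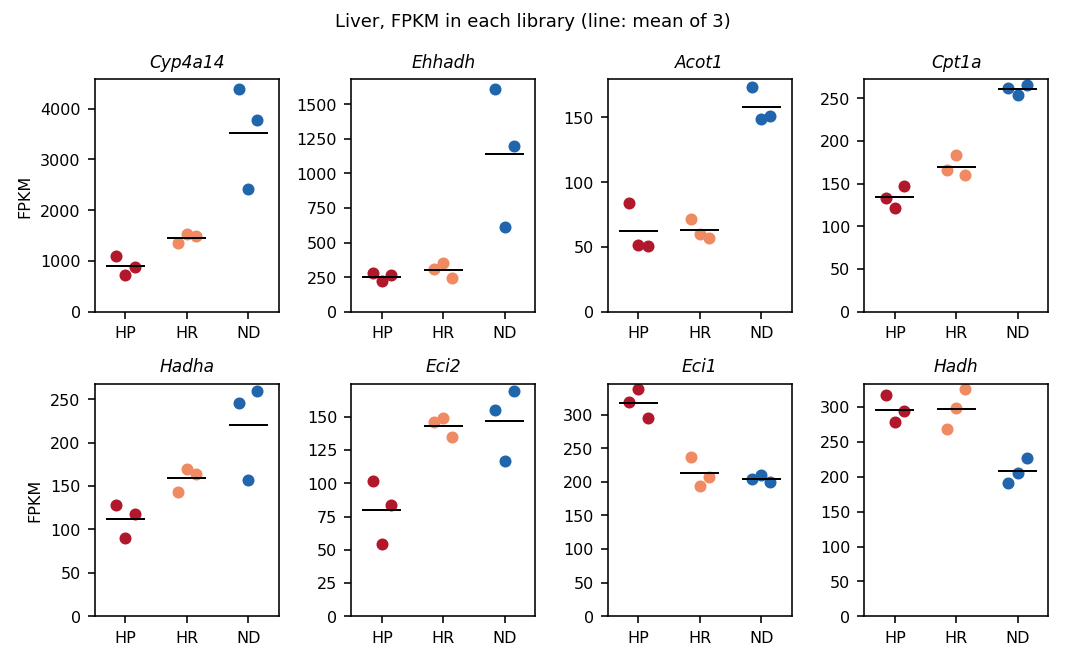
FPKM in each liver library for Cyp4a14, Ehhadh, Acot1, Cpt1a, Hadha, Eci2, Eci1 and Hadh, with HP, HR and ND from left to right; points are libraries and lines are means of 3. In Cyp4a14, Ehhadh and Acot1 both high-fat groups lie below ND, in Eci2 HP alone lies below ND, and in Eci1 HP alone lies above.

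HR livers were set against the same ND libraries. Of the 40 genes 1 was higher and 6 lower in HR (limma, adjusted p under 0.05), when 2.28% of genes tested were higher and 0.969% lower; the median was -0.25 for the 40 and 0.01 for all genes, and 17 had an unadjusted p under 0.05. The 6 lower genes were Cyp4a10, Cyp4a14, Cyp4a31, Ehhadh, Acot1 and Cpt1a, and all 6 were also among the 16 lower in HP, a comparison that uses the same ND libraries. Ehhadh had 309, 351 and 242 FPKM in HR livers, against 1612, 612 and 1197 FPKM in ND livers (log2 difference -1.83, SE 0.29, adjusted p = 0.00936). Acot1 had 71.9, 60.2 and 57.1 FPKM in HR against 173, 149 and 151 FPKM in ND (-1.31, SE 0.18, adjusted p = 0.00447). Every HR library of both genes was below every ND library.

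Cyp4a10 had 1099, 1083 and 1002 FPKM in HR livers, against 2034, 1904 and 2224 FPKM in ND livers (log2 difference -0.95, SE 0.13, adjusted p = 0.00434). Cyp4a14 had 1348, 1533 and 1496 FPKM in HR against 4395, 2425 and 3767 FPKM in ND (-1.23, SE 0.22, adjusted p = 0.0159), and Cyp4a31 24.2, 24.0 and 15.4 FPKM against 77.4, 41.0 and 89.1 FPKM (-1.61, SE 0.26, adjusted p = 0.00924). None of the 3 overlapped with ND. Cyp4a32 did not pass (-0.58, adjusted p = 0.36), and its HR 3 library, at 97.4 FPKM, lay inside the ND range while HR 1 and HR 2 had 38.7 and 42.4 FPKM.

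Cpt1a had 166, 183 and 160.1 FPKM in HR livers, against 262, 254 and 265 FPKM in ND livers (log2 difference -0.62, SE 0.11, adjusted p = 0.0177). The mitochondrial genes that fell in HP did not pass in HR: Hadha had 143, 169 and 164 FPKM in HR (-0.44, adjusted p = 0.241), with HR 2 and HR 3 above ND 2 (157 FPKM). Hadh, with 268, 299 and 327 FPKM in HR against 192, 206 and 227 FPKM in ND, was the 1 higher gene (0.51, SE 0.12, adjusted p = 0.0496), and it missed the threshold in 16 of 17 alternative settings, with adjusted p up to 0.206. The calls of Cpt1a (without ND 1, ND 3, HR 1 or HR 3, adjusted p 0.0624 to 0.0878) and Cyp4a14 (without ND 1, ND 3 or any HR library, 0.0505 to 0.0752) also rested on single libraries, with unchanged direction. The count of 7 fell to 4 without ND 1, ND 3, HR 1 or HR 3 and to 5 without HR 2, the lower genes alone being left. Acsl1, Bdh1 and Ppara did not pass; Ppara had 69.5, 53.9 and 51.5 FPKM in HR, inside the ND range (-0.02, adjusted p = 0.965), and Bdh1 274, 268 and 255 FPKM, all above ND (0.30, adjusted p = 0.26). Pdk4 had 1.79, 3.25 and 1.82 FPKM in HR, all below ND (-1.05, adjusted p = 0.122).

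HP and HR livers were then compared directly. Of the 40, 5 were higher and 2 lower with HP over HR (limma, adjusted p under 0.05), when 7.2% of genes tested were higher and 3.94% lower; 19 had an unadjusted p under 0.05, and the medians were -0.13 for the 40 and -0.03 for all genes. After rescaling to the same sum the 40 gave 3 higher and 6 lower, and all genes 419 higher and 785 lower against 766 and 419 as deposited, at a median of -0.19. The count of 7 fell to 1 without HR 2 or HR 3, to 2 without HP 2 or HP 3 and to 4 without HR 1, and was 12 without ND 2. The genes higher in HP were Acot4, Pdk4, Acot2, Eci1 and Pex11a; the lower ones were Eci2 and Cyp4a10.

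Acot4 had 3.26, 2.49 and 3.67 FPKM in HP livers, against 0.12, 0.957 and 0.236 FPKM in HR livers (log2 difference 1.56, SE 0.27). As it passed the filter only through HP, its difference is no test, though it is counted above. Acot2 had 13.0, 19.5 and 18.8 FPKM in HP against 10.1, 9.08 and 6.55 FPKM in HR (0.92, SE 0.20, adjusted p = 0.0184). Pdk4 had 6.28, 5.26 and 8.77 FPKM in HP against 1.79, 3.25 and 1.82 FPKM in HR (1.24, SE 0.34, adjusted p = 0.0386). In these 3 genes every HP library was above every HR library. Pex11a had 202, 168 and 214 FPKM in HP against 126, 135 and 131 FPKM in HR (0.57, SE 0.14, adjusted p = 0.0285), and Eci1 318, 338 and 294 FPKM against 237, 194 and 207 FPKM (0.58, SE 0.12, adjusted p = 0.0153). Pex11a lost its call after rescaling (0.37, adjusted p = 0.154). Leaving out single libraries, with unchanged direction, ended the calls of Pdk4 (any HP or HR library, adjusted p 0.0561 to 0.115), Acot2 (HP 2, HP 3, HR 2 or HR 3, 0.0552 to 0.0768), Eci1 (HP 2, HR 2 or HR 3, 0.053 to 0.073) and Pex11a (each HP or HR library but HP 2, 0.0506 to 0.0863).

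Eci2 had 102, 54.6 and 83.3 FPKM in HP livers, against 146, 149 and 135 FPKM in HR livers (log2 difference -0.88, SE 0.21, adjusted p = 0.0252). Cyp4a10 had 770.4, 740.1 and 662 FPKM in HP against 1099, 1083 and 1002 FPKM in HR (-0.55, SE 0.13, adjusted p = 0.0233). The groups did not overlap in either gene. Both calls ended without HP 2, HP 3, HR 2 or HR 3, and that of Cyp4a10 also without HR 1 (adjusted p 0.0569 to 0.0919 for Eci2 and 0.0505 to 0.0947 for Cyp4a10). Without ND 2 or HP 1, Cyp4a14 passed as well (-0.71, adjusted p = 0.0239, and -0.87, adjusted p = 0.0365), against -0.71 (adjusted p = 0.0612) with all libraries. Cpt1a was lower in each HP library (121 to 148 FPKM) than in any HR library (160.1 to 183 FPKM) without passing (-0.34, adjusted p = 0.0778). Ehhadh (-0.23, adjusted p = 0.623), Bdh1 (-0.14), Ppara (-0.38, adjusted p = 0.249) and Acot1 (-0.05) did not pass.

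A further 91 genes of the same pathways, in 6 lists, were read beside the 40. In liver HP against ND 16 of the 88 tested were higher and 27 lower, with a median of -0.15, when 17.6% of all genes tested were higher and 14.1% lower; without ND 1 these were 10 and 14, without HP 2 11 and 15, and without ND 3 11 and 17. Of 19 tested peroxisomal genes 1 rose and 7 fell, among them Hacl1, the lyase of alpha-oxidation (log2 difference -1.08, adjusted p = 0.00283), the transporter Abcd3 (-1.01, adjusted p = 0.00327), the carnitine acetyltransferase Crat (-0.68, adjusted p = 0.00336) and the very long-chain acyl-CoA synthetase Slc27a2 (-0.64, adjusted p = 0.00997). Of 10 genes on the microsomal list, which also holds the alcohol dehydrogenases Adh1 and Adh4, 1 rose and 5 fell. Cyp4a12b had 23.1, 6.98 and 2.72 FPKM in HP against 71.2, 66.2 and 81.2 FPKM in ND (-3.04, adjusted p = 0.00205), and its near-identical copy Cyp4a12a (-1.05, adjusted p = 0.0086), Cyp4f14 (-1.06, adjusted p = 0.0026) and the electron donor of microsomal P450s, Por (-0.80, adjusted p = 0.00383), also fell. Of 17 mitochondrial genes 5 rose and 5 fell, led by the thioesterase Acot13 (1.34, adjusted p = 0.00206) and the dehydrogenase Acad11 (-0.81, adjusted p = 0.0123), with Acad9 (0.65, adjusted p = 0.00481) and the thioesterase Acot9 (0.62, adjusted p = 0.01) among the higher. The calls of Acad11 and Acot9 were each lost in 2 of 17 alternatives, that of Acad11 without ND 1 or HP 2 (adjusted p 0.0507 to 0.0525).

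The ketone body list had 7 genes, of which 1 rose, Bdh2 (log2 difference 0.92, adjusted p = 0.0036), and 1 fell, the monocarboxylate transporter Slc16a1, with 15.7, 10.7 and 17.1 FPKM in HP livers against 48.6, 27.7 and 27.9 FPKM in ND livers (-1.18, adjusted p = 0.00409). Of 17 other PPAR alpha targets 6 rose and 6 fell. The lipid droplet gene Cidea had 15.4, 7.66 and 6.11 FPKM in HP against 0.26, 0.113 and 0 FPKM in ND (3.17). Outside HP it reached 1 FPKM in HR 1 and HR 3 alone, so it passed the filter only through HP. Its difference is therefore no test, though it is counted among the 6. The lipid droplet gene Fitm1 (1.78, adjusted p = 0.000733) and the mitochondrial carrier Ucp2 (1.61, adjusted p = 0.000742) also rose. The retinol saturase Retsat, with 409.3, 368.7 and 325.1 FPKM in HP against 887.3, 700.4 and 893.7 FPKM in ND, fell (-1.16, adjusted p = 0.000454). The 4 adipocyte markers summed to 106.9 to 152.3 FPKM in HP livers and 36.72 to 64.8 FPKM in ND livers, with up to 2 of the 4 listed at 0 in a library. Cidec and Fabp4 made up nearly all of these sums. In HP livers Adipoq had 1.4, 0 and 0.174 FPKM and Plin1 0.399, 0 and 0 FPKM. The part of adipocyte RNA in the rises above was not tested. Fgf21, a fasting hormone, was higher in HP (0.83, adjusted p = 0.0451), a call lost in 10 of 17 alternatives; Angptl4, an inhibitor of lipoprotein lipase, did not pass (-0.23, adjusted p = 0.219).

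Of 18 genes on the list of receptors and cofactors, which also holds enzymes such as Acacb, 2 rose and 3 fell. Nr0b2, a receptor without DNA-binding domain (log2 difference 1.63, adjusted p = 0.0149), and Pparg, the fat-cell PPAR (1.21, adjusted p = 0.00197), were higher in HP. The corepressor Ncor1 (-0.64, adjusted p = 0.0241) and Acacb, which makes the inhibitor of Cpt1 (-0.46, adjusted p = 0.0142), were lower. The coactivator Ppargc1a did not pass (-0.52, adjusted p = 0.0545). The calls of Ncor1 (ND 1, ND 3 or HP 2, adjusted p 0.0791 to 0.0898), Nr0b2 (ND 1 or HP 2, 0.0573 to 0.0595) and Acacb (ND 1, 0.0595) ended when single libraries were left out.

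In liver HR against ND 6 of the 88 were higher and 6 lower (0 to 6 and 2 to 6 when any 1 library was left out), when 2.28% of all genes tested were higher and 0.969% lower; Slc16a1 (-1.29, adjusted p = 0.014), Retsat (-0.85, adjusted p = 0.0109), Crat (-0.84, adjusted p = 0.00564) and Hacl1 (-0.84, adjusted p = 0.0388) fell, and Fitm1 (1.21, adjusted p = 0.0223) and the fatty acid transporter Cd36 (0.71, adjusted p = 0.0375) rose. The other genes that fell were Acacb (-0.64, adjusted p = 0.0174) and the lipase Mgll (-0.57, adjusted p = 0.0267), and the others that rose were Bdh2 (0.83, adjusted p = 0.0289), the bile acid side-chain oxidase Acox2 (0.60, adjusted p = 0.0313), Acsm5 (0.67, adjusted p = 0.0199) and the alcohol dehydrogenase Adh1 (0.64, adjusted p = 0.0424). Fgf21, Angptl4 and Ppargc1a did not pass, at -0.52, -0.44 and -0.47. Of these 12 calls that of Crat alone held in all 17 alternatives. Leaving out single libraries ended those of Adh1 (ND 1, ND 2, HP 3 or any HR library, adjusted p 0.0532 to 0.176), Acox2 (any ND or HR library, 0.0529 to 0.135), Hacl1 (any ND library, HR 1 or HR 2, 0.0515 to 0.15) and Cd36 (ND 1, ND 3 or any HR library, 0.0776 to 0.15). They also ended those of Mgll (the libraries that ended Cd36, 0.0718 to 0.121), Bdh2 (ND 1, ND 3, HR 2 or HR 3, 0.0776 to 0.117) and Fitm1 (ND 1, ND 3, HR 1 or HR 3, 0.0738 to 0.0979). The calls of Acsm5 (ND 1, HR 1 or HR 2, 0.0706 to 0.0979), Acacb (ND 1, HR 1 or HR 3, 0.0552 to 0.0952), Slc16a1 (HR 1 or HR 3, 0.0546 to 0.0559) and Retsat (ND 1, 0.061) ended in the same way.

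In HP against HR 5 of the 88 were higher and 9 lower (0 to 6 and 2 to 15 when any 1 library was left out), when 7.2% of all genes tested were higher and 3.94% lower. The lower genes included 5 of the 10 on the microsomal list, which also holds alcohol dehydrogenases. Among the 5 was Cyp4a12b, with 23.1, 6.98 and 2.72 FPKM in HP livers against 46.4, 52.5 and 32.9 FPKM in HR livers (log2 difference -2.30, adjusted p = 0.0188). Cyp4f14 (-1.17, adjusted p = 0.00591) and the alcohol dehydrogenase Adh4 (-0.83, adjusted p = 0.0242) were others. So was Por, with 125, 122.5 and 129.3 FPKM against 227, 221.4 and 248.3 FPKM (-0.88, adjusted p = 0.00855). Slc27a2 (-0.65, adjusted p = 0.0233), the short branched-chain dehydrogenase Acadsb (-0.57, adjusted p = 0.0275) and the coactivator Ppargc1b (-0.57, adjusted p = 0.0316) were lower too, and Acot13 was higher (1.00, adjusted p = 0.0195). Rxra, the partner receptor of PPAR alpha, was lower (-0.69, adjusted p = 0.0338) and Pparg higher (0.71, adjusted p = 0.0399). Fgf21 had 15.2, 22.0 and 21.9 FPKM in HP against 12.5, 5.59 and 4.75 FPKM in HR (1.35, adjusted p = 0.0175), with adjusted p of 0.0549 to 0.0729 without HP 2, HP 3, HR 2 or HR 3. Ucp2 was higher in HP (0.93, adjusted p = 0.0231). Cidea is counted as higher too (1.69), but it passed the filter only through HP, so its difference is no test. Angptl4 and Ppargc1a did not pass. The calls of Cyp4f14 and Por held in all 17 alternatives. Leaving out single libraries ended those of Pparg (each library but ND 2, HP 1 and HR 1, adjusted p 0.0506 to 0.149), Rxra (HP 2, HP 3, HR 2 or HR 3, 0.0952 to 0.132) and Ppargc1b (any HP library, HR 1 or HR 2, 0.0506 to 0.127). The calls of Acot13, Acadsb and Adh4 (HP 2, HP 3, HR 2 or HR 3, 0.0596 to 0.11) ended too. So did those of Ucp2 (HP 2, HP 3 or HR 3, 0.0574 to 0.0841), Cidea (HP 1, HP 2 or HR 2, 0.0526 to 0.0733), Slc27a2 (HP 2 or HR 2, 0.0988 to 0.105) and Cyp4a12b (HP 2 or HR 2, 0.0728 to 0.0738).

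In eWAT, 34 of the 40 genes passed the filter on low values over 9 libraries; Acot3, Acot4, Cyp4a10, Cyp4a14, Cyp4a31 and Cyp4a32 did not. None of the 34 was called in HP against ND, when 2.07% of the 14430 genes tested were higher and 0.0416% lower, nor in HR against ND or HP against HR, where 0% were called in either direction. At an unadjusted p under 0.05 there were 1, 0 and 0 of the 34 (limma; no other tool was run). ND 1 and HR 2 stood apart in single genes too: Etfa had 27.7 FPKM in ND 1 and 62.8 FPKM in HR 2, against 207 to 380.2 FPKM in the other 7 libraries. Cpt1b went the other way, with 84.7 FPKM in ND 1 and 147 FPKM in HR 2 against 1.73 to 17.4 FPKM elsewhere.

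Over the 7 libraries (HP n = 3, HR n = 2, ND n = 2) 33 genes were tested, Bdh1 having dropped below the filter. In HP against ND 3 were higher and 5 lower (limma, adjusted p under 0.05), when 15.7% of the 13054 genes tested were higher and 7.4% lower, at medians of -0.11 for the 33 and 0.01 for all genes. Of the 33, 13 had an unadjusted p under 0.05. The filter can be met by the 3 HP libraries alone but not by the 2 of HR or of ND. This can raise the share of all genes called higher in HP. Vnn1 had 7.64, 7.73 and 8.80 FPKM in HP eWAT, against 38.5 and 42.0 FPKM in ND 2 and ND 3 (log2 difference -2.19, SE 0.20, adjusted p = 0.00066; ND 1 had 3.08 FPKM). Its call held in all 15 alternatives. HR 1 and HR 3 lay between, with 24.3 and 15.2 FPKM, and the difference of HP from HR passed (-1.16, SE 0.20, adjusted p = 0.0286, lost without any 1 HP or HR library) while that of HR from ND did not (-1.03, adjusted p = 0.0581). The macrophage markers (6 genes) summed to 2321 to 3153 FPKM in HP eWAT, 858.2 and 1013 FPKM in HR 1 and HR 3 and 97.26 and 80.49 FPKM in ND 2 and ND 3. Of the adipocyte markers, Adipoq averaged 990.5 FPKM in HP against 2304 FPKM in ND 2 and ND 3. Plin1 averaged 332.9 against 693.8 FPKM and Cidec 1619 against 2973 FPKM. Fabp4 had 12038 to 14495 FPKM in HP and 23308 and 13012 FPKM in ND 2 and ND 3. The part of macrophage and adipocyte RNA in the eWAT results was not tested.

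The mitochondrial genes of eWAT moved in both directions. Hadha had 127, 116 and 121 FPKM in HP eWAT, against 78.2 and 81.5 FPKM in ND 2 and ND 3 (log2 difference 0.60, SE 0.10, adjusted p = 0.00669). ND 1, at 57.0 FPKM, was lower still. Cpt1a had 62.7, 69.3 and 75.4 FPKM in HP against 39.4 and 48.3 FPKM in ND (0.65, SE 0.15, adjusted p = 0.0231). For both genes all 3 HP libraries were above both ND libraries. Eci1 had 50.2, 45.1 and 48.9 FPKM in HP against 86.0 and 71.3 FPKM in ND (-0.69, SE 0.18, adjusted p = 0.0361), Hadh 140.5, 132 and 137 FPKM against 251 and 172 FPKM (-0.60, SE 0.17, adjusted p = 0.0457) and Etfa 216, 207 and 209.7 FPKM against 380.2 and 278 FPKM (-0.62, SE 0.16, adjusted p = 0.0345). In the 3 genes HP was lower than both ND libraries, but the calls of Eci1, Hadh and Etfa were lost in 7, 11 and 10 of 15 alternatives, among them those without ND 2 or any 1 HP library (adjusted p 0.0719 to 0.133). The call of Cpt1a was lost without ND 2, HP 2 or HP 3 (0.0658 to 0.0928), and that of Hadha with length and GC correction (0.49, adjusted p = 0.0596).

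Among peroxisomal genes Acaa1b had 79.7, 68.8 and 66.4 FPKM in HP eWAT and 94.1 and 75.1 FPKM in HR 1 and HR 3, against 47.8 and 35.0 FPKM in ND 2 and ND 3. Both high-fat groups were above ND, in HP by 0.79 on the log2 scale (SE 0.18, adjusted p = 0.0217) and in HR by 1.02 (SE 0.20, adjusted p = 0.0396). The call in HR was lost in 10 of 15 alternatives. HR 1, the highest library, also had the most brown adipocyte marker RNA: 3 markers summed to 57.21 FPKM there, with the uncoupling protein Ucp1 at 32.5 FPKM, against 1.92 FPKM in HR 3 and 2.956 and 3.936 FPKM in ND 2 and ND 3. The part of these transcripts was not tested; without HR 1 the difference was 0.86 (adjusted p = 0.194). Its near-identical copy Acaa1a did not pass in either comparison. Pex11a had 23.4, 23.4 and 26.8 FPKM in HP against 34.9 and 38.9 FPKM in ND (-0.57, SE 0.14, adjusted p = 0.0286). Without ND 3 or any 1 HP library the calls of Acaa1b and Pex11a in HP were lost (adjusted p 0.0573 to 0.0864). Acaa1b was the only one of the 33 called in HR against ND, when 3.85% of genes were higher and 0.291% lower (6 with an unadjusted p under 0.05), and Vnn1 the only one in HP against HR, when 4.21% were higher and 2.25% lower (8 with an unadjusted p under 0.05). The count of 8 in HP against ND fell to 3 without HP 1 and to 2 without HP 2 or HP 3.

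**Figure D4:**
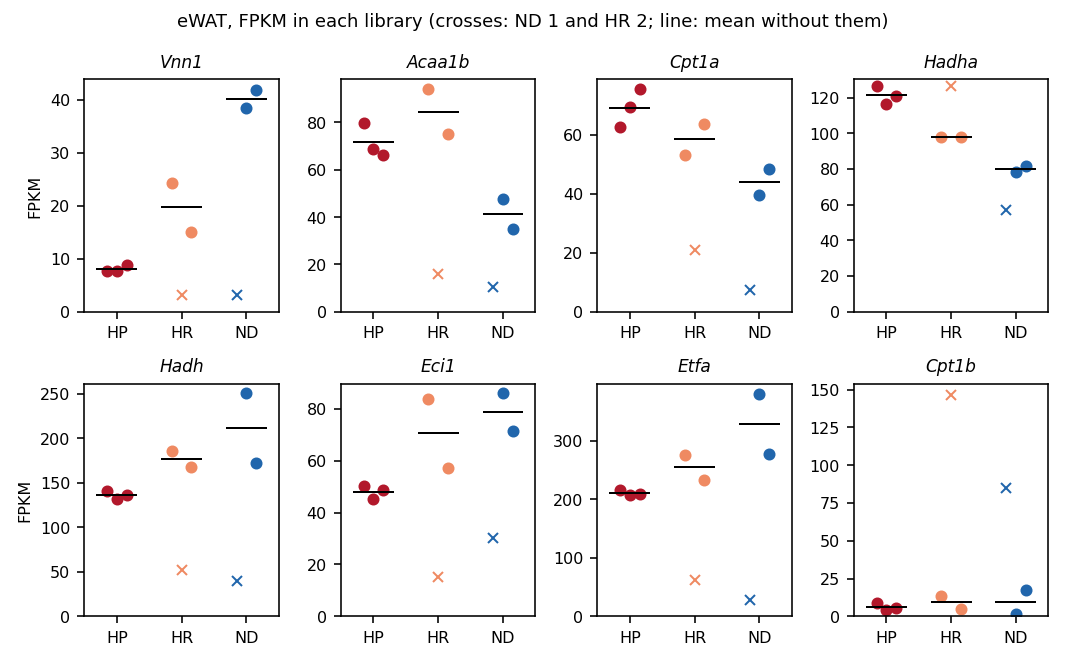
FPKM in each eWAT library for Vnn1, Acaa1b, Cpt1a, Hadha, Hadh, Eci1, Etfa and Cpt1b, with HP, HR and ND from left to right; crosses are ND 1 and HR 2, the libraries left out of the 7, and lines are means without them. Vnn1 in HP lies at 7.64 to 8.80 FPKM, below ND 2 and ND 3, and the crosses lie apart from their groups in most panels.

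Ehhadh and Acot1, which were lower in HP than in ND livers, did not pass in eWAT. Neither did Ppara and Pdk4, which had not passed in liver HP against ND. Ehhadh had 22.6, 19.2 and 17.5 FPKM in HP eWAT and 24.4 and 18.4 FPKM in ND 2 and ND 3 (log2 difference -0.11, adjusted p = 0.694). Acot1 had 2.4, 3.02 and 2.36 FPKM in HP and 0.422 and 9.02 FPKM in ND 2 and ND 3. Ppara had 1.39, 1.95 and 0.758 FPKM in HP, 3.18 and 2.25 FPKM in HR 1 and HR 3 and 1.93 and 3.94 FPKM in ND 2 and ND 3 (HP against ND -0.72, adjusted p = 0.174). Pdk4 had 98.5, 115 and 134 FPKM in HP, 155 and 117 FPKM in HR and 138 and 131 FPKM in ND (HP against ND -0.22), with overlapping groups. Bdh1 stayed at 0.169 to 0.337 FPKM in HP and reached 4.08 FPKM in HR 2 and 3.38 FPKM in ND 1.

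Of the further pathway genes 79 were tested in eWAT over 7 libraries, and in HP against ND 6 were higher and 22 lower, with a median of -0.30 (4 to 7 and 11 to 23 when any 1 library was left out), when 15.7% of all genes tested were higher and 7.4% lower. Over 9 libraries 81 were tested and 0 were called in each of the 3 comparisons (limma; 4, 2 and 3 with an unadjusted p under 0.05). The mitochondrial list had 1 higher and 7 lower of 16, led by the medium-chain acyl-CoA synthetase Acsm3, with 0.593, 0.85 and 0.856 FPKM in HP eWAT against 23.2 and 19.3 FPKM in ND 2 and ND 3 (log2 difference -3.65, adjusted p = 0.000735), its relative Acsm5 (-1.45, adjusted p = 0.0045) and Acadsb (-1.25, adjusted p = 0.00494). Of 17 genes on the list of receptors and cofactors, which also holds the enzymes Acaca and Acacb, 1 rose and 6 fell. Among the 6 were Acaca, the enzyme of malonyl-CoA synthesis (-1.63, adjusted p = 0.000485), Acacb (-1.31, adjusted p = 0.00609), Ppargc1a (-1.21, adjusted p = 0.00934) and the phosphatidate phosphatase Lpin1 (-0.69, adjusted p = 0.0389). The peroxisomal list had 1 higher and 3 lower of 17, the lower ones being Phyh of alpha-oxidation (-1.44, adjusted p = 0.00495), the transporter Abcd2 (-0.75, adjusted p = 0.024) and the thioesterase Acot6 (-0.69, adjusted p = 0.0448). Of 16 other PPAR alpha targets 3 rose and 3 fell. Plin2, which coats lipid droplets, had 1299, 1038 and 1336 FPKM in HP against 232.8 and 275 FPKM in ND (2.26, adjusted p = 0.000231), Ucp2 708.2, 536 and 716.6 FPKM against 108.8 and 128.4 FPKM (2.45, adjusted p = 0.000325), and Ucp3 fell (-1.54, adjusted p = 0.00129). Among ketone body genes Acat1 (-0.75, adjusted p = 0.015) and Slc16a1 (-0.57, adjusted p = 0.0262) fell, and of 6 tested from the microsomal list Por alone passed (-1.14, adjusted p = 0.00213). Angptl4 (0.12) did not pass, and Fgf21, at 0.669 to 1.05 FPKM in HP and 2.06 and 2.42 FPKM in ND, was lower (-0.85, adjusted p = 0.0377). Several of these calls rested on single libraries: those of Acot6 and Fgf21 ended without ND 3 or any 1 HP or HR library (adjusted p 0.0513 to 0.158), and that of Lpin1 without ND 3 or any 1 HP library (0.0839 to 0.127). The call of Slc16a1 ended without ND 2 or any 1 HP library (0.0536 to 0.0828), that of Abcd2 without ND 2, HP 1 or HP 3 (0.0638 to 0.072), and that of Acat1 without HP 3 (0.0554). In all, Acot6, Fgf21, Lpin1, Slc16a1 and Abcd2 lost their calls in 12, 10, 8, 6 and 3 of 15 alternatives.

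In eWAT HR against ND 3 of the 79 were higher and 2 lower, when 3.85% of all genes tested were higher and 0.291% lower (limma). Ucp2 (log2 difference 1.57, adjusted p = 0.0111) and Plin2 (1.36, adjusted p = 0.01) rose, and Acsm3 (-2.19, adjusted p = 0.0294) and Acaca (-1.30, adjusted p = 0.00781) fell. Creb3l3 (1.57) is counted as higher too. Its difference ran from 1.34 to 3.53 over the alternatives, and its levels are not given. Whether any ND library helped it past the filter is not shown, so its difference is not read as a test. All 5 calls ended without HR 3. Those of Creb3l3 and Plin2 also ended without HR 1, that of Creb3l3 without HP 3, and that of Acsm3 without ND 2, HP 2 or HP 3 (adjusted p 0.0596 to 0.167 over all of these). In HP against HR 2 were higher and 11 lower, when 4.21% of all genes tested were higher and 2.25% lower. Ucp3 (-1.16, adjusted p = 0.0204), Acsm5 (-1.15, adjusted p = 0.0333) and Slc27a1 (-0.91, adjusted p = 0.0295) fell, and Plin2 (0.90, adjusted p = 0.0289) and Ucp2 (0.87, adjusted p = 0.0471) rose. Without any 1 HP or HR library these calls were lost (adjusted p 0.05 to 0.269), except that of Ucp3 without HP 2. When any 1 of the 7 libraries was left out, these counts ranged over 1 to 7 higher and 0 to 6 lower for HR against ND, and 0 to 2 and 0 to 22 for HP against HR.

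Whether the diet difference itself differed between liver and eWAT was tested as the liver difference minus the eWAT difference. Only genes past the filter in both tissues are read here. The Cyp4a genes, Acot3, Acot4 and, over 7 eWAT libraries, Bdh1, below it in eWAT, could show no more than the liver difference again. Over 16 libraries, 6 of 33 genes had a larger (more positive) HP against ND difference in liver and 5 a smaller one (limma, adjusted p under 0.05), when 11.4% of genes past the filter in both tissues were larger and 15.5% smaller; 16 had an unadjusted p under 0.05. Cpt1a stood at -0.96 in liver and 0.65 in eWAT (difference of log2 differences -1.61, adjusted p = 2.07e-05), and Hadha at -0.95 and 0.60 (-1.55, adjusted p = 0.000667). In the opposite direction, Eci1 stood at 0.63 in liver and -0.69 in eWAT (1.32, adjusted p = 0.000347) and Hadh at 0.51 and -0.60 (1.11, adjusted p = 0.00113). Each of these 4 genes had passed in both tissues with opposite signs, whereas Vnn1 was lower in HP in both and more so in eWAT (1.67, adjusted p = 0.000605). For Ehhadh, at -2.06 in liver and -0.11 in eWAT, the difference was -1.95 (adjusted p = 0.00338). Hadhb and Acaa1b were the other smaller ones, and Pex11a, Acot2 and Etfa the other larger ones.

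Over 18 libraries 0 of 34 were larger and 1 smaller, Hadha, against 0.95% and 3.47% of genes past the filter in both tissues (5 with an unadjusted p under 0.05). For HR against ND, 1 of 33 was larger and 3 smaller over 16 libraries (1.7% and 4.58% of genes); Ehhadh (-2.05, adjusted p = 0.0117), Acaa1b (-1.45, adjusted p = 0.00145) and Cpt1a (-1.02, adjusted p = 0.00418) were the smaller and Hadh (0.75, adjusted p = 0.0485) was the larger. Over 18 libraries 0 of 34 passed in limma (2 with an unadjusted p under 0.05), against 0.0396% and 0.0198% of genes. For HP against HR 3 were larger (Eci1, Acot2 and Pex11a) and 1 smaller (Cpt1a) over 16 libraries (3.89% and 5.07%), and over 18 there were 0 of 34 in limma (1 with an unadjusted p under 0.05; 0.0099% and 0.0396% of genes). Each tissue's HP and HR differences share that tissue's ND libraries.

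**Figure D5:**
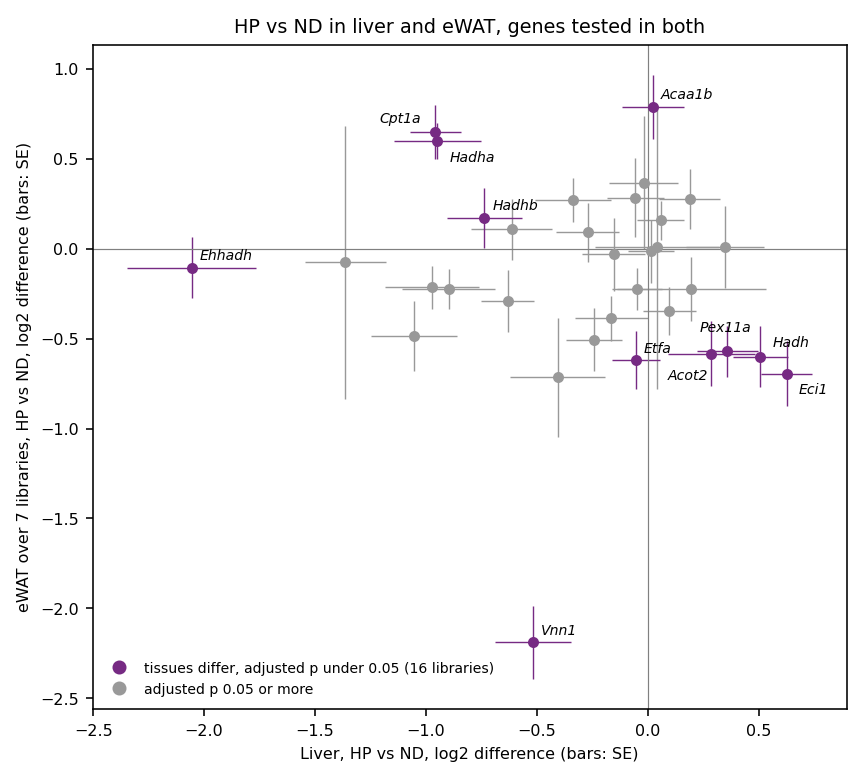
Log2 difference of HP from ND in liver (horizontal) against that in eWAT over 7 libraries (vertical), both on the log2(FPKM + 1) scale, for the genes tested in both tissues; bars are standard errors and purple marks genes whose difference itself differed between tissues (adjusted p under 0.05, 16 libraries). Cpt1a and Hadha lie in the upper left with -0.96 and -0.95 in liver and 0.65 and 0.60 in eWAT, Eci1 and Hadh in the lower right, and Ehhadh far left near 0 in eWAT.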

How the data were processed

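Liver and eWAT RNA (3 libraries in each of 6 groups) was measured as mRNA sequencing, with TRIzol extraction and Illumina TruSeq libraries per the labels' protocols. The authors deposited FPKM values (fragments divided by transcript length and library total). The submitters' processing notes name CASAVA 1.8.2 with STAR 2.4.0, and also Cufflinks 2.1.1. Antisense and overlapping genes cannot be told apart: the strand setting, like the roles of the tools, the genome build and the annotation, is not given in the sources used here. Of 23474 gene IDs 22671 were named from GENCODE M21; 803 were not. Total counts are unknown; whole-read steps in low values gave relative depths of 0.877 to 1.09 among liver libraries (against ND 2) and 0.953 to 1.09 for 4 eWAT libraries (against HR 3), and no clear step for eWAT ND 1, ND 2, HP 1 and HP 2. No more than 0.0101% of values over 1 FPKM were identical between libraries of a tissue.

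Groups and replicate numbers came from the sample titles. Values were tested as log2(FPKM + 1), which understates changes of low genes, with limma 3.58.1 (R 4.3.3, variance trend, two-sided, Benjamini-Hochberg over all genes tested, threshold 0.05) among genes reaching 1 FPKM in 3 or more fitted libraries. Each tissue had 1 fit of its 3 groups. Tissue differences came from a fit of 18 libraries, in which both tissues share 1 estimate of the spread. The 7- and 16-library fits without eWAT ND 1 and HR 2 were added after spermatid transcripts had been seen. Alternatives are given in the closing section. On simulated data with 200 changed genes, the liver HP against ND fit called 87% of log2 changes of 1 and 98% of 2 (10506 genes), the eWAT fit 0% and 0% over 9 libraries (14220 genes) and 49% and 91% over 7 (12882 genes). The changed genes were drawn from those with a mean log2(FPKM + 1) over 3, and a gene's spread was equal in all libraries. The rates do not speak to lower genes, nor to a spread that sits in a few libraries, as in eWAT over 9. Python 3.11.15, pandas 2.3.3, numpy 2.4.6 and matplotlib 3.10.9 were also used. Shared words were counted as 50-base runs of annotated transcripts found in another gene.

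The 40 genes, the 6 further lists and the markers were chosen with earlier results of these data known. Genes were picked for naming by a rule. It took up to 8 called genes in each direction per comparison, and near-identical copies together. Ppara, Cpt1a, Ehhadh, Cyp4a14, Bdh1 and Pdk4 were taken throughout. Of the further lists it took Fgf21, Angptl4, Ppargc1a and up to 4 called genes per list. Beyond the rule, the remaining lower genes of liver HP against ND were named (Hadha, Hadhb, Decr1, Eci2, Crot, Acot3 and Vnn1). Some genes that did not pass were also named, to account for the 40. A few genes that the rule picked out are not reported here.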

Additional observations from a re-analysis of the deposited data

Results flagged for a closer look

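Genes of the set whose diet difference differed between tissues by a test of the difference itself are listed here as liver minus eWAT, in log2 units, with the adjusted p from limma fitted across all genes. Over all 18 libraries, HP against ND, this was Hadha (-1.71, limma adjusted p = 0.00669), which passed again over 16 libraries. Genes below the filter in eWAT were left out.

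Over 16 libraries, HP against ND, the difference was lower in liver for Ehhadh (-1.95, limma adjusted p = 0.00338), Cpt1a (-1.61, limma adjusted p = 2.07e-05), Hadha (-1.55, limma adjusted p = 0.000667), Hadhb (-0.91, limma adjusted p = 0.0176) and Acaa1b (-0.77, limma adjusted p = 0.0153). It was higher in liver for Vnn1 (1.67, limma adjusted p = 0.000605), Eci1 (1.32, limma adjusted p = 0.000347), Hadh (1.11, limma adjusted p = 0.00113), Pex11a (0.93, limma adjusted p = 0.00327), Acot2 (0.87, limma adjusted p = 0.0362) and Etfa (0.57, limma adjusted p = 0.0263).

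For HR against ND over 16 libraries it was lower in liver for Ehhadh (-2.05, limma adjusted p = 0.0117), Acaa1b (-1.45, limma adjusted p = 0.00145) and Cpt1a (-1.02, limma adjusted p = 0.00418), and higher for Hadh (0.75, limma adjusted p = 0.0485). For HP against HR it was lower in liver for Cpt1a (-0.58, limma adjusted p = 0.0498), and higher for Eci1 (1.10, limma adjusted p = 0.0072), Acot2 (1.00, limma adjusted p = 0.0439) and Pex11a (0.96, limma adjusted p = 0.011). In eWAT these differences rest on 2 HR libraries, and those against ND on 2 ND libraries as well.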

How the results depend on the processing

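Alternatives were a pseudocount of 0.1, no filter, quantile normalization, rescaling to the same sum, no variance trend, length and GC correction, only the groups compared, a replicate block and leaving out each library; fits without eWAT ND 1 and HR 2 were added after seeing the data. Depth limits low genes in an unknown degree. The cause of the changes below was not tested. Single differences were tallied for genes picked by the naming rule, not for every gene with printed values. In settings with all libraries of the fit or without several, 1185 values kept direction and side of the threshold. There 168 lost the call, 8 gained one and 23 changed sign. With 1 library left out these were 1158, 260, 4 and 24.

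Counts of called genes among the 40 moved by over 1.5 times as follows. Liver HP against HR gave 2 without a filter, against 7. In eWAT over 9 libraries the count was 0 in each comparison. Leaving out ND 1 and HR 2 gave 8, 1 and 1 for HP against ND, HR against ND and HP against HR. Leaving out the 4 libraries with over 1000 FPKM of spermatid markers (ND 1, ND 3, HP 1 and HR 2) left ND 2 as the only ND library. Counts of that fit are therefore not given. Over 7 libraries, HP against ND gave 3 with length and GC correction and 5 with the replicate block against 8; HR against ND gave 2 with quantile normalization and 0 with no trend, length and GC correction, only the groups compared or the replicate block against 1; HP against HR gave 0 without a filter or with the replicate block against 1. The tissue difference in HP against ND gave 1 with a pseudocount of 0.1, 2 with the replicate block and 16 over 16 libraries against 4. In HR against ND and HP against HR it gave 7 and 5 over 16 libraries against 0. These tissue counts, and those of 26 to 34 for liver over eWAT below, include genes past the filter in liver alone.

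With 1 library left out, liver counts were 16 to 20 (HP against ND), 4 to 6 (HR against ND) and 1 to 12 (HP against HR); eWAT counts over 9 libraries 0 to 0 in each; over 7 libraries 2 to 9, 0 to 1 and 0 to 2; liver over eWAT on ND 26 to 34; and tissue differences 4 to 6, 0 to 1 (1 without eWAT ND 1) and 0 to 0.

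Same-numbered libraries did not deviate together in every pair (correlations of 0.087 to 0.385 between liver HP and ND and -0.312 to 0.016 between HR and ND), so the numbers were not taken as pairs. With the replicate block liver counts were 3 higher and 16 lower, 0 and 5, and 4 and 1.

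Signs changed as follows, all in differences that did not pass with all libraries of the fit. In liver, Bdh1 HP against ND was -0.048 with quantile normalization and -0.063 rescaled, and Ppargc1a HP against HR 0.15 with length and GC correction. Without the 4 libraries or without ND 1 and HR 2, eWAT Ehhadh was -0.39 and -0.11 (HP against ND) and -0.42 and -0.33 (HP against HR), Pdk4 -0.15 and -0.22, -0.041 and -0.00109, and -0.11 and -0.22, and Ppara HR against ND -0.046 (without ND 1 and HR 2). Over 9 libraries Bdh1 HR against ND was 0.023, 0.0088 and 0.18 with the pseudocount, quantile normalization and rescaling. Over 7, Angptl4 HP against ND was -0.077 with quantile normalization, Ppara HR against ND 0.013 and 0.00866 with quantile normalization and rescaling, and Pdk4 HR against ND 0.086, 0.072 and 0.019 with rescaling, length and GC correction and the replicate block. With 1 library left out, the signs that changed belonged to these ranges. In liver, Pdk4 HP against ND was -0.11 to 0.64, Ppara HR against ND -0.28 to 0.14 and Ppargc1a HP against HR -0.29 to 0.11. Over 9 eWAT libraries, HP against ND was -0.72 to 0.20 for Ppara, -0.11 to 1.76 for Ehhadh and -0.22 to 2.0 for Pdk4; HR against ND was -0.27 to 0.64 for Ppara, -0.067 to 1.22 for Cpt1a, -0.50 to 1.40 for Ehhadh, -0.54 to 0.28 for Bdh1 and -0.93 to 1.47 for Pdk4; HP against HR was -0.33 to 0.78 for Ehhadh and -0.22 to 1.27 for Pdk4. Over 7, Ehhadh HP against ND was -0.30 to 0.088, Ppara HR against ND -0.42 to 0.33 and Pdk4 HR against ND -0.20 to 0.20.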
